A study of Mus musculus with 48 samples.

Results

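The HMGA and HMGB proteins were described here from the 5 protein-coding genes Hmga1, Hmga2, Hmgb1, Hmgb2 and Hmgb3 and from Gm21596 and Gm45315, 2 processed pseudogenes that share sequence with Hmgb1. They were taken by symbol from the deposited gene tables, and all 7 were present among the 55450 genes measured. A further 18 symbols starting with Hmga or Hmgb were not members. RNA-seq had been run on mouse cells turned into adipocytes in culture, 48 libraries in 16 groups of 3. Primary preadipocytes from the inguinal white adipose tissue (iWAT) of mice 8 to 12 weeks old were taken at days 0, 3, 6 and 9, and mouse embryonic fibroblasts (MEFs) at days 0, 4, 8 and 12. Each day was measured in wild type (WT) cells and in double knockout (DKO) cells, Hmgn1-/- and Hmgn2-/-, the strain of both being labelled C57BL/6. The paper lists the DKO mice as a B6.Cg line and the WT mice as C57BL/6. The study asked what the loss of the nucleosome binding proteins HMGN1 and HMGN2 does while these cells are driven towards a beige fat state. Cells of both genotypes received the same induction medium, with 0.5 µg/ml insulin, 5 µM dexamethasone, 0.5 mM IBMX, 1 nM T3 and 1 µM rosiglitazone, for 4 days (preadipocytes) or 8 days (MEFs). They were then kept for 4 days in insulin and T3. The paper describes the 3 libraries of a group as biological replicates. The labels do not say that they come from separate animals or cultures, so each p-value measures only the spread between these libraries. In bulk RNA, fewer cells of a type and less RNA per cell cannot be told apart.

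High mobility group proteins are abundant, small chromatin proteins that bend or loosen DNA without reading a long sequence. HMGA1 and HMGA2 bind the minor groove of AT-rich DNA through AT hooks, are high in embryonic and dividing cells, and HMGA2 is known for promoting the growth of fat tissue. HMGB1, HMGB2 and HMGB3 bend DNA through paired HMG boxes and carry an acidic tail, and HMGB1 also acts outside the cell as an alarm signal. The HMGN proteins lost in the DKO cells are the remaining HMG family, and bind the nucleosome itself.

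On mm10 with GENCODE M21, Hmga1 (ENSMUSG00000046711.16) lies at chr17:27556497-27563674 on the plus strand and Hmga2 (ENSMUSG00000056758.14) at chr10:120361275-120476469 on the minus strand. Hmgb1 (ENSMUSG00000066551.12) is at chr5:149046702-149184489 (minus), Hmgb2 (ENSMUSG00000054717.7) at chr8:57511907-57515999 (plus) and Hmgb3 (ENSMUSG00000015217.11) at chrX:71555918-71560676 (plus). Gm21596 (ENSMUSG00000096006.1) is a copy on another chromosome, at chr2:113919247-113920562 (minus), and Gm45315 (ENSMUSG00000109925.1) a short one at chr7:12797529-12797861 (plus). Hmga1 and Hmga2 each overlap annotated antisense genes, Hmgb1 overlaps Uspl1, and Gm45315 lies inside the span of Zscan18 on the other strand. Whether the counting used strand is not given in the sources used here, so reads of such overlapping genes may not have been told apart.

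The copies were aligned to the Hmgb1 transcript, because reads of 50 bases cannot be placed with certainty where the sequences are identical. Gm21596 matched the 648 coding bases of Hmgb1 at 647 positions, the exception being A21G, counted from the A of the start codon with the base of Hmgb1 first. Of the 2838 bases of the Hmgb1-201 transcript, Gm21596 aligned to bases 1 to 1313, and the rest was not covered. Within that part it had 1310 identities, 1 mismatch and 6 gaps in 1317 aligned columns, or 99.5% identity. Gm45315 covered coding positions 307 to 638 and matched 328 of 332 bases (98.8%), with T570G, A606C, C615T and A630T. The stretch from position 439 to 638 is shown for the 3 genes, with the bases at which Hmgb1 and Gm45315 differ in capitals in those 2 lines. It runs into the glutamate and aspartate codons of the acidic tail, where all 4 substitutions of Gm45315 fall and where Gm21596 is identical to Hmgb1.
Hmgb1: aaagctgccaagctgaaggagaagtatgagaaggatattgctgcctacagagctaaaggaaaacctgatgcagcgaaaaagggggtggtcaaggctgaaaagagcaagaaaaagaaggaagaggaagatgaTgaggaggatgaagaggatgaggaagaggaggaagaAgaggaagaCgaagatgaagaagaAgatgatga
Gm45315: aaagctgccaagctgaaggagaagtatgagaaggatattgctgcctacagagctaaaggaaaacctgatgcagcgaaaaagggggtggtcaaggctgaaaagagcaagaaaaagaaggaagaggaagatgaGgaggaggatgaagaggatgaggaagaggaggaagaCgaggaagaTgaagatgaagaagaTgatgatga
Gm21596: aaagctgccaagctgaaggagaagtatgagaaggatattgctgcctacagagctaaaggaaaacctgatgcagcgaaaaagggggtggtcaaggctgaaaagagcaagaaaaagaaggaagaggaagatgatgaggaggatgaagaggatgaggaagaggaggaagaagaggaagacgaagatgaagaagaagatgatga
The only coding base that separates Gm21596 from Hmgb1 is in the first 60 bases of the coding sequence, given here with that base in capitals.
Hmgb1, start: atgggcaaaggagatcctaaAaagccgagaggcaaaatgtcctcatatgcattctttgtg
Gm21596, start: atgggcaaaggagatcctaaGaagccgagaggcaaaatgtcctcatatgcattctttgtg

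Library totals lay between 19809397 and 36006696 expected counts in preadipocytes and between 18962483 and 33083213 in MEFs. Hmgn2 had at most 10 counts in any DKO library against 744 to 6069 in WT, while Hmgn1 kept 1571 to 3493 counts in DKO against 1542 to 6120 in WT. Counts per gene do not show which exons the reads cover, so they do not check the Hmgn1 label. The summed level of 10 preadipocyte and fibroblast markers was 19989 to 34750 CPM (counts scaled to a common library size) in day 0 preadipocytes, where that of 12 adipocyte markers was 186 to 917. The sum of 8 macrophage and leukocyte markers was 38.3 to 465 in day 0 preadipocytes and 6502 to 9115 in day 0 MEFs, so the MEF libraries held RNA of those markers from the start. Of the 48 libraries, 35 were nearest to a library of their own group. WT MEF day 4 replicate 1 and DKO MEF day 4 replicate 3 were nearest to each other (r 0.990 across genes), as were WT MEF day 8 replicate 2 and DKO MEF day 8 replicate 3 (r 0.990). Their adipocyte marker sums, 6509 and 8379 at day 4 and 4090 and 4759 at day 8, lay outside the 2049 to 5155 and 10078 to 17889 of the other libraries of those days. The day 8 sums of 4090 and 4759 lay within that day 4 range. DKO MEF day 4 replicate 1, which is not among these 4 libraries, was nearest to DKO MEF day 8 replicate 3 (r 0.988). Whether the day labels of the 4 libraries are right was not tested. The comparisons that use MEFs of day 4 or 8 were therefore also fitted without these 4 libraries, a choice made after seeing the data, and are given where a call of a member changed, besides the values between genotypes.

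To compare levels between genes, CPM was divided by the length of the merged exons in kilobases. In undifferentiated WT preadipocytes Hmga1 stood at 61.1 ± 2.41 CPM per kb (SD, n = 3), Hmgb1 at 34.6 ± 5.40, Hmga2 at 17.8 ± 1.93, Hmgb2 at 10.1 ± 3.67 and Hmgb3 at 3.19 ± 1.23. At day 6 the same cells gave 31.0 ± 1.22 for Hmgb1, 17.5 ± 0.286 for Hmga1, 14.5 ± 1.61 for Hmgb3, 8.73 ± 0.787 for Hmgb2 and 1.04 ± 0.446 for Hmga2. Thus Hmgb3 was the lowest of the 5 at day 0, and Hmga2 the lowest at day 6 and day 9. Hmgb1 led in 10 of the 16 groups, and Hmga1 in the other 6. In WT MEFs at day 0 Hmgb1 stood at 38.9 ± 2.38 CPM per kb and Hmga1 at 28.4 ± 0.696, while Hmgb2 at 11.8 ± 1.08 and Hmga2 at 11.2 ± 1.40 did not differ beyond their spread. With the longest transcript in place of the merged exons the order changed in 9 of 16 groups, and Hmgb1 led in 14, so the order of Hmgb1 and Hmga1 rests on the length chosen.

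**Figure D1:**
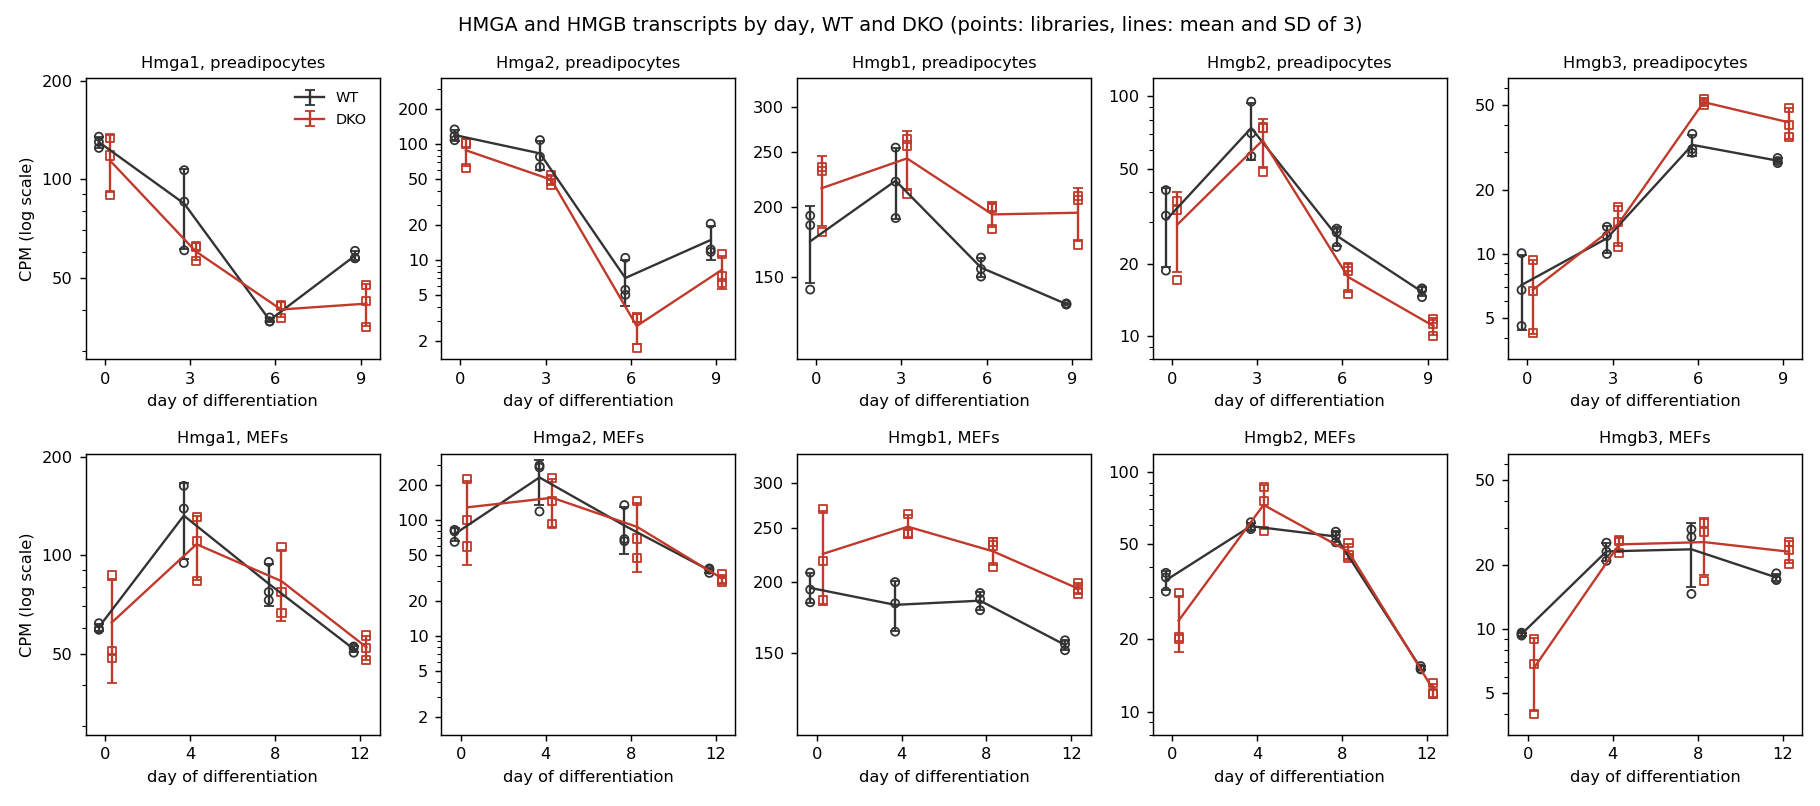
Level of the 5 protein-coding members in CPM on a log axis against the day of differentiation, preadipocytes and MEFs in separate panels. Black circles are WT libraries, red squares DKO libraries, and lines join the group means with the SD of 3. Hmga2 in preadipocytes covers the widest range, from 135 CPM at day 0 to 1.76 CPM in a DKO library of day 6, while Hmgb1 stays between 134 and 270 CPM in all panels.

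Hmga2 had the widest range over differentiation of the protein-coding members in both genotypes of preadipocytes and in WT MEFs. In DKO MEFs its highest group mean was 4.97 times the lowest, below the 5.93 of Hmgb2. In WT preadipocytes its 3 libraries held 118, 109 and 135 CPM at day 0, 109, 78.2 and 63.8 at day 3, 10.5, 5.05 and 5.57 at day 6, and 20.7, 12.4 and 11.8 at day 9. The day 6 and day 9 libraries lay far below all libraries of the first days. DKO preadipocytes held 62.0, 103 and 102 CPM at day 0, 45.1, 49.0 and 54.6 at day 3, 3.20, 3.19 and 1.76 at day 6, and 7.25, 11.3 and 6.40 at day 9. From day 3 to day 6 Hmga2 fell 11.6-fold in WT (log2 difference -3.54, adjusted p = 7.77e-06) and 18.9-fold in DKO (-4.24, adjusted p = 1.19e-06). From day 6 to day 9 it rose again, by 1.05 on the log2 scale in WT (adjusted p = 0.0391) and 1.62 in DKO (adjusted p = 0.00642), from levels that were a few CPM. In WT the call of this last rise was lost in 3 of the 6 fits that left out 1 of the libraries of these days. Over the step from day 3 to day 6 in WT, macrophage and leukocyte markers went from 66.7 to 235 CPM in sum to 6443 to 10618, adipocyte markers from 776 to 2906 to 22244 to 27231, and fibroblast markers from 20557 to 34604 to 9447 to 11275. The step from day 3 to day 6 also spans the change from induction medium to insulin and T3 after 4 days. In MEFs that change came after 8 days, so their step from day 8 to day 12 coincides with it. The part of these marker shifts and of the medium in the steps of the members between days was not tested.

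In MEFs Hmga2 took another course. WT MEFs held 82.4, 64.9 and 79.8 CPM at day 0, 119, 296 and 285 at day 4, 65.8, 135 and 68.6 at day 8, and 35.0, 37.3 and 38.3 at day 12. All 3 day 4 libraries were above those of day 0, a rise of 1.62 on the log2 scale (adjusted p = 0.00365), and the day 12 libraries were below them. DKO MEFs held 59.2, 228 and 99.6 CPM at day 0, 145, 229 and 93.0 at day 4, 46.9, 69.4 and 146 at day 8, and 29.5, 34.2 and 30.3 at day 12. Here days 0, 4 and 8 overlapped, and the step from day 0 to day 4 was 0.28 (adjusted p = 0.703). The lowest WT library of day 4 and the highest of day 8 are among the 4 that stood apart. Without these, Hmga2 in WT MEFs differed from day 4 to day 8 by -2.11, against -1.39 (adjusted p = 0.0648) with all libraries.

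Hmga1 had the sign of Hmga2 at each step within a cell type, and moved in opposite directions at the first step of the 2 cell types. In DKO the sizes parted. From day 6 to day 9 of DKO preadipocytes Hmga1 was at 0.05 beside 1.62 for Hmga2. From day 0 to day 4 of DKO MEFs Hmga1 was at 0.80 beside 0.28. Of Hmga1, WT preadipocytes held 125, 135 and 130 CPM at day 0, 107, 85.5 and 60.7 at day 3, 36.8, 36.8 and 37.9 at day 6, and 60.5, 57.5 and 57.4 at day 9. It fell by 0.62 on the log2 scale from day 0 to day 3 (adjusted p = 0.00575) and by 1.16 to day 6 (adjusted p = 3.88e-05), then rose by 0.63 to day 9 (adjusted p = 0.01). In DKO preadipocytes Hmga1 fell by 0.88 and 0.63 at the first and second step (adjusted p = 0.00058 and 0.00218), and the last step was 0.05, with 37.7, 41.1 and 41.4 CPM at day 6 and 35.3, 47.5 and 42.4 at day 9. WT MEFs held 59.1, 61.9 and 59.7 CPM at day 0 and 94.6, 139 and 163 at day 4, a rise of 1.13 (adjusted p = 0.000235). Their day 8 libraries held 72.8, 95.3 and 77.1 CPM and those of day 12 held 52.6, 52.0 and 50.3, a fall of 0.73 from day 8 (adjusted p = 0.00593). Without the libraries that stood apart that last step was -0.54 and was not called, while Hmgb3 was called at it (-0.69, adjusted p = 1.21e-06).

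Hmgb2, an HMGB protein that is high in dividing cells, had its highest group mean at the second time point in both cell types and genotypes. WT preadipocytes held 31.8, 18.7 and 40.6 CPM at day 0, 56.3, 70.2 and 95.1 at day 3, 28.0, 23.5 and 27.0 at day 6, and 15.5, 15.8 and 14.5 at day 9. It rose by 1.29 on the log2 scale to day 3 (adjusted p = 0.00232) and fell by 1.47 to day 6 (adjusted p = 0.000449) and by 0.81 to day 9 (adjusted p = 0.0415), the last call being lost whichever library of days 6 and 9 was left out. In DKO preadipocytes, at 17.1, 33.6 and 36.7 CPM at day 0, 48.5, 74.2 and 74.1 at day 3 and 19.4, 18.6 and 14.9 at day 6, it rose by 1.21 (adjusted p = 0.00362) and fell by 1.94. WT MEFs held 36.3, 38.0 and 31.7 CPM at day 0, 58.9, 57.8 and 61.8 at day 4, 50.9, 56.4 and 54.3 at day 8, and 15.1, 15 and 15.5 at day 12. It rose by 0.75 to day 4 (adjusted p = 9.24e-06), and from day 8 to day 12 it fell, at -1.89 in WT (adjusted p = 1.01e-07) and -1.89 in DKO MEFs (adjusted p = 0.000148).

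Hmgb3, an HMGB protein known from blood progenitors, ran against Hmga1 and Hmga2 in preadipocytes. It rose with Hmgb2 at the first step and moved against it at the second. From day 6 to day 9 it was at -0.27 in WT (adjusted p = 0.35) and -0.32 in DKO (adjusted p = 0.393), the same sign as Hmgb2 at that step. WT libraries held 6.75, 4.57 and 10.1 CPM at day 0, 9.96, 12.1 and 13.4 at day 3, 29.8, 36.5 and 31.0 at day 6, and 26.6, 27.2 and 28.1 at day 9. The late libraries were above all early ones. It rose by 0.74 on the log2 scale to day 3 (adjusted p = 0.0177) and by 1.47 to day 6 (adjusted p = 7.95e-05) in WT, the first of these calls being lost in 3 of 6 fits that left out a library (lowest 0.51 without day 0 replicate 2) and in the fit of the 2 days (adjusted p = 0.082). In DKO it rose by 1.08 (adjusted p = 0.00541) and 1.86. In MEFs Hmgb3 rose at the first step only, from 9.35, 9.51 and 9.64 to 25.5, 23.2 and 21 CPM in WT (1.29, adjusted p = 0.000294) and by 1.93 in DKO (adjusted p = 0.00068). Its 3 MEF libraries of day 8 were spread from 14.7 to 29.5 CPM in WT and from 16.9 to 31.4 in DKO, the low one in each being a library that stood apart.

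Hmgb1 varied least among the protein-coding members. The highest group mean over the 4 days was 1.66 times the lowest in WT preadipocytes, 1.26 in DKO preadipocytes, 1.26 in WT MEFs and 1.29 in DKO MEFs. The same ratio was 17.1 and 32.7 for Hmga2, 4.84 and 5.97 for Hmgb2, 4.55 and 7.61 for Hmgb3 and 3.50 and 2.84 for Hmga1 in WT and DKO preadipocytes. In WT preadipocytes Hmgb1 differed by 0.36 from day 0 to day 3 (adjusted p = 0.0281) and by -0.49 from day 3 to day 6 (adjusted p = 0.00324), both below the 1.5-fold set for a call. The step from day 8 to day 12 in WT MEFs, -0.33 (adjusted p = 0.00466), was of the same kind.

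A member was called when its adjusted p was under 0.05 and its fold change at least 1.5, and the share of all genes called at the same step was high for most steps. In WT preadipocytes 3 of 7 members were called from day 0 to day 3 (24.7% of genes), 5, the fifth being Gm45315, from day 3 to day 6 (46.6%) and 3 from day 6 to day 9 (14%). In DKO preadipocytes, where 6 members passed the filter on low counts, 4 were called at the first step (27% of genes), 4 at the second (49.5%) and 1, Hmga2, at the last (9.05%). In WT MEFs 4 members were called from day 0 to day 4 (33.2% of genes) and 3 from day 8 to day 12 (21.2%), and in DKO MEFs 3 (26.1%) and 1 (21.7%). From day 4 to day 8, 0 members were called by edgeR's quasi-likelihood test in WT MEFs (1.72% of genes), where 2 had an unadjusted p under 0.05 and DESeq2 called 2. For the same step in DKO MEFs 0 were called (0% of genes), with 1 unadjusted p under 0.05 and 0 calls by DESeq2 or limma-voom. Without the libraries that stood apart these counts were 2 in WT, Hmga1 and Hmga2, and 1 in DKO, Hmgb2. The share of all genes called in these refits, and by DESeq2 at this step, was not counted, so these counts have no background beside them.

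Some of these calls rested on 1 library. Leaving out 1 library lost the call of Hmga1 in WT preadipocytes from day 0 to day 3 (-0.43 without day 3 replicate 3), of Hmga1 in DKO preadipocytes from day 3 to day 6 (-0.55 without day 6 replicate 1), and of Hmga1 and Hmga2 in WT MEFs from day 8 to day 12 (-0.54 and -0.86 without day 8 replicate 2). It lost those of Hmga2 in DKO preadipocytes from day 0 to day 3 and of Hmga1 in DKO MEFs from day 0 to day 4 in 4 of 6 fits each.

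WT preadipocytes and WT MEFs were compared at day 0, where 38.6% of genes were called and 3 of 7 members. Scaled together, Hmga1 held 139, 149 and 144 CPM in preadipocytes and 57.9, 60.8 and 58.6 in MEFs, higher by 1.28 on the log2 scale in preadipocytes (adjusted p = 1.57e-06). Hmga2 was higher by 0.85 (adjusted p = 0.000448), with 131, 120 and 149 CPM against 80.7, 63.7 and 78.3. Hmgb1 differed by 0.00 ± 0.12 (SE), Hmgb2 by -0.04 ± 0.27 and Hmgb3 by -0.24 ± 0.26, with overlapping libraries of each, and the third call was Gm45315, higher by 0.81 in preadipocytes (adjusted p = 0.0104). Tissue, age and culture differ between these cells and cannot be told apart.

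**Figure D2:**
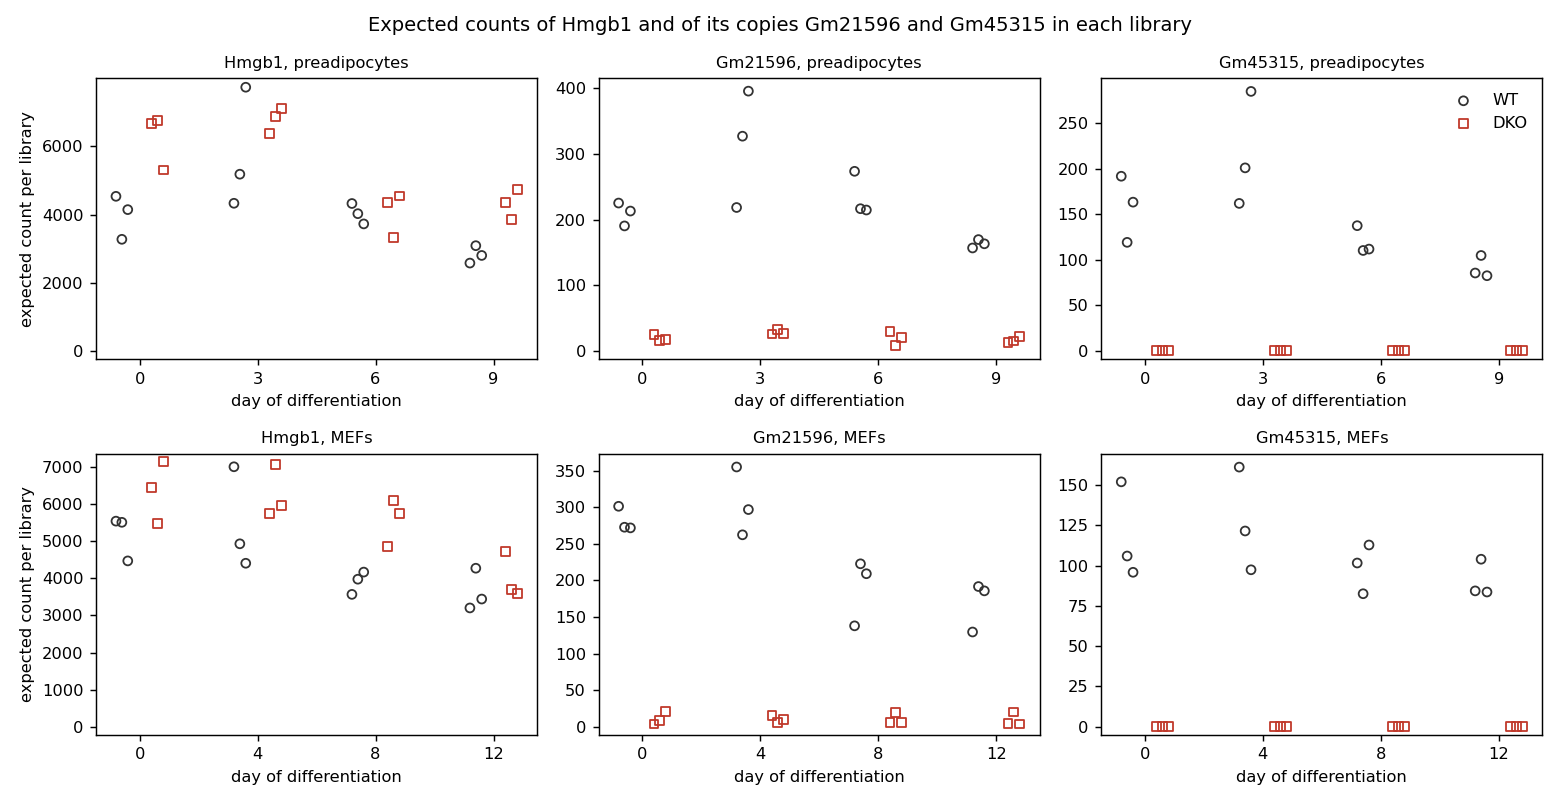
Expected counts per library of Hmgb1 and its 2 copies, Gm21596 and Gm45315, in WT (black circles) and DKO (red squares) cells by day. Gm21596 lies between 129 and 396 counts in WT and at most at 32.1 in DKO, and Gm45315 between 82.5 and 285 in WT and at 0 or 0.09 in DKO.

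The members that separated DKO from WT most were the 2 copies of Hmgb1. In preadipocytes of day 0 the WT libraries had 225, 190 and 213 expected counts of Gm21596, and the DKO libraries 24.8, 15.8 and 17.4. In MEFs of day 0 they had 301, 273 and 272 against 3.64, 8.01 and 20.5. In no comparison did the genotypes overlap, and Gm21596 was 9.95-fold to 13.8-fold lower in DKO preadipocytes and 15.2-fold to 29.7-fold lower in DKO MEFs. The fits put it at -3.79 on the log2 scale at day 0 of preadipocytes (adjusted p = 0.000844) and at -4.83 in MEFs (adjusted p = 0.0208). Gm45315 had 82.5 to 285 counts in the WT libraries. It was listed at 0 in 23 of the 24 DKO libraries and at 0.09 in DKO preadipocytes day 0 replicate 2. Against a floor of 3 counts per library it was at least 32.0-fold lower at day 9 and at least 77.9-fold lower at day 3 of preadipocytes, and at least 26.1-fold to 41.7-fold lower over the days of MEFs. Gm45315 passed the filter on low counts through its WT libraries alone, so it could only come out lower in DKO. Its calls and adjusted p are therefore a description and no test. Both copies were called lower in 7 of the 8 comparisons. At day 8 of MEFs their adjusted p was 0.0636 and 0.0591, and without WT replicate 2 and DKO replicate 3 of that day Gm21596 was at -3.94 (adjusted p = 0.00084) and Hmgb1 at 0.29 (adjusted p = 0.0261).

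In WT libraries the copies took 7.51% to 9.25% of the reads counted to Hmgb1 and the copies together in preadipocytes (median 8.25%, n = 12) and 6.25% to 8.21% in MEFs (median 7.14%, n = 12). In DKO libraries they took 0.235% to 0.674% and 0.0564% to 0.535%. Within 500 kb of Gm21596 there were 5 tested neighbours among 19 annotated genes, of which Grem1 alone was called, at day 6 of preadipocytes (11.6% of all genes called) and day 12 of MEFs (7.98%). Of 18 to 21 tested neighbours of Gm45315 among 58 annotated, Zfp128 alone was called, at day 12 of MEFs. Why reads were assigned to the copies in WT and hardly in DKO was not tested. Genotype and mouse line cannot be told apart in this design. The genome sequence of these mice at the copies was not examined here, so the values are reads placed on these loci in the reference and not a measured loss of a transcript.

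Hmgb1 itself was on average higher in DKO in 8 of 8 comparisons. At day 9 of preadipocytes WT held 135, 134 and 134 CPM and DKO 209, 171 and 205, with no overlap, a log2 difference of 0.51 ± 0.09 (SE, adjusted p = 0.0433), or 1.42-fold. At day 12 of MEFs WT held 158, 155 and 152 CPM and DKO 199, 191 and 195, a difference of 0.31 ± 0.04 (adjusted p = 1.89e-05). In preadipocytes of day 6 it was 0.28 ± 0.08 (adjusted p = 0.0464), with 162, 155 and 150 against 199, 182 and 200 CPM. None of these reached 1.5-fold, and with any fold allowed an adjusted p under 0.05 was had by 21.6% of genes at day 6 of preadipocytes, 2.11% at day 9 and 33% at day 12 of MEFs. When the reads of Hmgb1 and both copies were summed, the differences were smaller by 0.10 to 0.12 in each comparison. They were then 0.16 at preadipocyte day 6 (adjusted p = 0.197), 0.39 at preadipocyte day 9 (adjusted p = 0.0601) and 0.21 at MEF day 12 (adjusted p = 0.000512). The sum was still higher in DKO in 8 of 8 comparisons, from 0.02 at day 3 of preadipocytes to 0.39 at day 9.

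**Figure D3:**
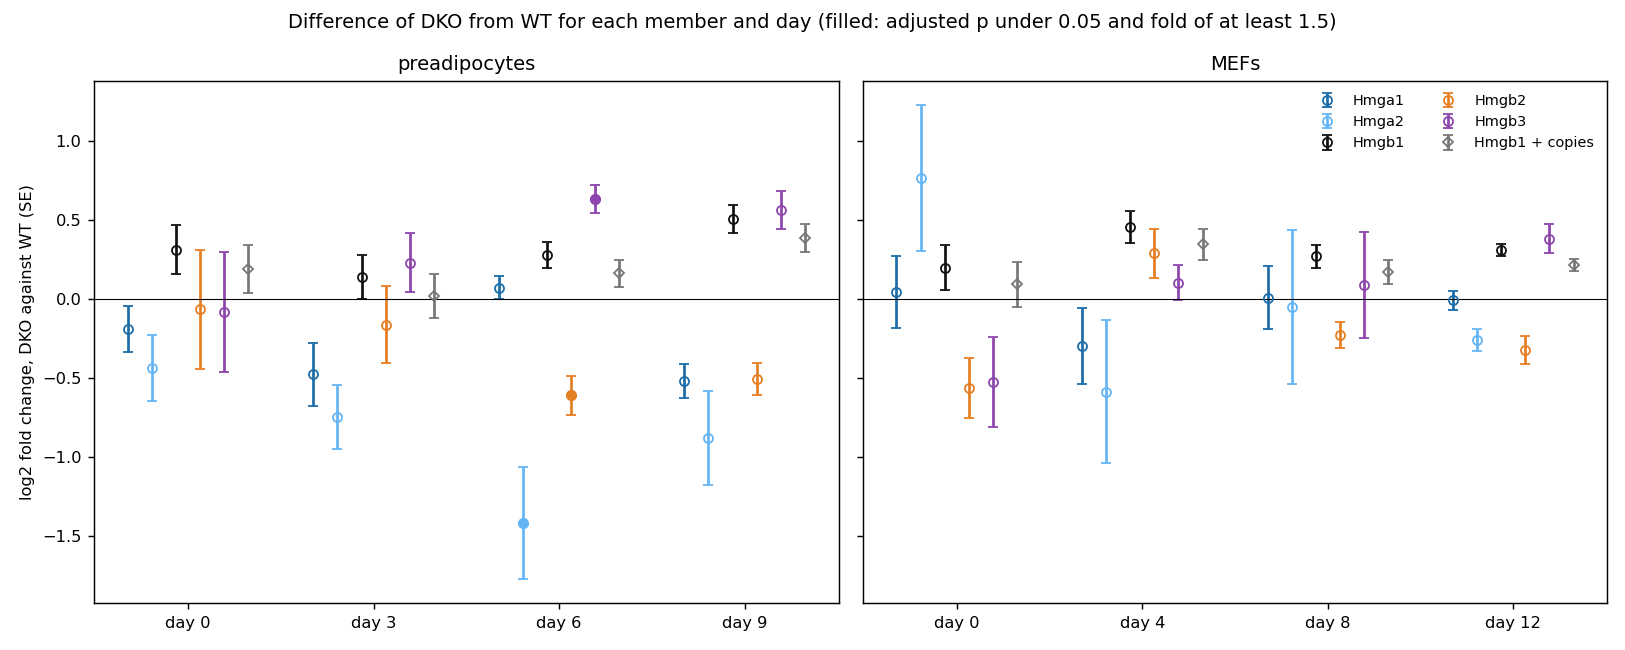
Log2 fold change of DKO against WT with its SE, by day, for the 5 protein-coding members and, as grey diamonds, for the summed reads of Hmgb1 and its copies. Colours mark the members. Filled symbols passed an adjusted p of 0.05 and a fold change of 1.5. The filled points are those of Hmga2, Hmgb2 and Hmgb3 at day 6 of preadipocytes.

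Among the protein-coding members, 3 were called between genotypes by edgeR's quasi-likelihood test, all at day 6 of preadipocytes, while DESeq2 also called Hmga2 at days 3 and 9. With the 2 copies, 5 of 7 members were called there, where 11.6% of all genes were called. Groups did not overlap for 6 members, the copies and all protein-coding members but Hmga1, against 42.8% of genes. Hmga2 held 10.5, 5.05 and 5.57 CPM in WT and 3.20, 3.19 and 1.76 in DKO, with no overlap, and was 2.68-fold lower in DKO (log2 difference -1.42 ± 0.35 SE, adjusted p = 0.0301). These values rest on 280, 131 and 138 counts in WT and 70, 58 and 40 in DKO, and the call held in 2 of the 6 fits that left out a library. Without WT replicate 1, the highest, the difference was -1.0. Hmgb2 held 28.0, 23.5 and 27.0 CPM in WT and 19.4, 18.6 and 14.9 in DKO and was 1.53-fold lower (-0.61 ± 0.12, adjusted p = 0.0126). Hmgb3 held 29.8, 36.5 and 31.0 CPM in WT and 49.6, 51.6 and 53.2 in DKO and was 1.55-fold higher (0.63 ± 0.09, adjusted p = 0.00462). Both sat just past the fold threshold. Without WT replicate 1 both calls were lost (-0.55 and 0.58), and that of Hmgb2 also without WT replicate 3 (-0.58) or DKO replicate 3 (-0.51). Hmga1, at 36.8, 36.8 and 37.9 against 37.7, 41.1 and 41.4 CPM, differed by 0.07 ± 0.07 (adjusted p = 0.495).

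Other cell types' markers moved between the genotypes at day 6 of preadipocytes as well. The adipocyte marker sum was 22244 to 27231 CPM in WT and 30202 to 37325 in DKO, with 3 of 11 tested markers called higher. The brown adipocyte marker sum was 329 to 460 against 936 to 1177 CPM, with 7 of 8 called higher. Fibroblast markers summed to 9447 to 11275 CPM in WT and 2885 to 4491 in DKO (1 higher and 4 lower of 9), and macrophage and leukocyte markers to 6443 to 10618 in WT and 2185 to 5059 in DKO (1 lower of 8). The part of these shifts in the differences of Hmga2, Hmgb2 and Hmgb3 was not tested.

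On the other days of preadipocytes the members called by edgeR's quasi-likelihood test were the copies. At day 0 and day 3 the copies were the 2 members called, where 0.218% and 0.337% of genes were called. Hmga2 held 118, 109 and 135 CPM in WT and 62.0, 103 and 102 in DKO at day 0 (-0.44 ± 0.21, adjusted p = 0.662). At day 3 the values were 109, 78.2 and 63.8 against 45.1, 49.0 and 54.6 (-0.75 ± 0.20, adjusted p = 0.217), and DESeq2 called it (-0.76, adjusted p = 0.0172). At that day DESeq2 called 408 of 15119 genes. Groups did not overlap for 3 of 7 members on either day, the copies and Hmga2, against 14.9% and 18.6% of genes. Among the 5 protein-coding members that was Hmga2 alone, a share near that of all genes. At day 9, 2 members were called where 1.24% of genes were. The libraries of all 7 members, the copies included, did not overlap, against 32.8% of genes. Hmga1 was at 60.5, 57.5 and 57.4 CPM in WT and 35.3, 47.5 and 42.4 in DKO (-0.52 ± 0.11, adjusted p = 0.0519). Hmga2 was at -0.88 ± 0.30 (adjusted p = 0.124, and called by DESeq2 at -0.89, adjusted p = 0.0303), Hmgb2 at -0.51 ± 0.10 (adjusted p = 0.0518) and Hmgb3 at 0.56 ± 0.12 (adjusted p = 0.0547). DESeq2 called 827 of 14700 genes on this day. For Hmgb2 the libraries held 15.5, 15.8 and 14.5 against 11.8, 9.99 and 11.2 CPM, and for Hmgb3 26.6, 27.2 and 28.1 against 40.2, 35.2 and 48.5. Without DKO replicate 2, Hmga1 (-0.62), Hmga2 (-1.16), Hmgb1 (0.59) and Hmgb3 (0.67) were called as well, giving 6 calls. The share of all genes called in that fit was not counted. With all libraries Hmga1, Hmgb1 and Hmgb3 had also been below 1.5-fold, and Hmgb1 already had an adjusted p of 0.0433. The library nearest to DKO replicate 2 was WT replicate 1 of that day (r 0.984), and its fibroblast marker sum was 10983 CPM against 4718 and 3426 in the other DKO libraries. At day 9 adipocyte markers summed to 27847 to 29288 CPM in WT and 35718 to 43412 in DKO, and brown adipocyte markers to 569 to 647 and 934 to 1521. Their part in the differences of this day was not tested.

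In MEFs no protein-coding member reached the call between genotypes by edgeR's quasi-likelihood test. At day 0 and day 4 the copies were the 2 members called (0.102% and 0.0905% of genes), and groups did not overlap for 4 and 3 members, against 18.5% and 11.5% of genes. Besides the copies these were Hmgb2 and Hmgb3 at day 0 and Hmgb1 at day 4. Without WT replicate 1 and DKO replicate 3 of day 4 the copies were again the 2 called, and Hmga1 was at -0.32, Hmga2 at -0.63, Hmgb1 at 0.55 (adjusted p = 0.0634), Hmgb2 at 0.44 (adjusted p = 0.119) and Hmgb3 at 0.15. Hmgb2 at day 0 held 36.3, 38.0 and 31.7 CPM in WT and 31.2, 20.1 and 20.6 in DKO (-0.56 ± 0.19, adjusted p = 0.524). Hmga2 at day 0 differed by 0.77 ± 0.46 (adjusted p = 0.572), its DKO libraries at 59.2, 228 and 99.6 CPM lying on both sides of those of WT. At day 8, 0 of 7 members were called by edgeR's quasi-likelihood test (0.0595% of genes). An unadjusted p under 0.05 was had by 4 members and by 1295 of 15117 genes. Both DESeq2 and limma-voom called 2 members, beside 97 and 14 of 15117 genes. Groups did not overlap for 4 members, the copies, Hmgb1 and Hmgb2, against 15.4% of genes. At day 12 the 2 copies were called (7.98% of genes). Groups did not overlap for 6 members, the copies and all protein-coding members but Hmga1, against 47% of genes. There Hmgb1 (0.31), Hmgb3 (0.38 ± 0.09, adjusted p = 0.00382), Hmga2 (-0.26 ± 0.07, adjusted p = 0.0089) and Hmgb2 (-0.32 ± 0.09, adjusted p = 0.0113) had an adjusted p under 0.05 at less than 1.5-fold, as 33% of genes did at any fold. The libraries of Hmgb3 were 18.3, 17.0 and 17.2 CPM in WT and 23.6, 25.6 and 20.2 in DKO, and those of Hmgb2 15.1, 15 and 15.5 against 13.2, 11.9 and 11.8. At this day the adipocyte marker sum was 18678 to 19154 CPM in WT and 28553 to 30486 in DKO, with 7 of 12 markers called higher, and its part in these differences was not tested. Hmga1 differed by -0.01 ± 0.06, with 52.6, 52.0 and 50.3 against 48, 56.8 and 52.1 CPM.

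Whether the DKO to WT difference itself varied between days was tested with all 24 libraries of a cell type. By edgeR's quasi-likelihood test 0 of 7 members passed in preadipocytes (2.08% of genes did) and 0 of 7 in MEFs (0.0177%). The lowest adjusted p was 0.245 for Hmga1 in preadipocytes and 0.387 for Hmgb2 in MEFs. At an unadjusted p under 0.05 there was 1 member in preadipocytes and 1 in MEFs, and DESeq2 and limma-voom called 0. The differences at day 6 of preadipocytes were thus not shown to be larger than those of the other days.

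**Figure D4:**
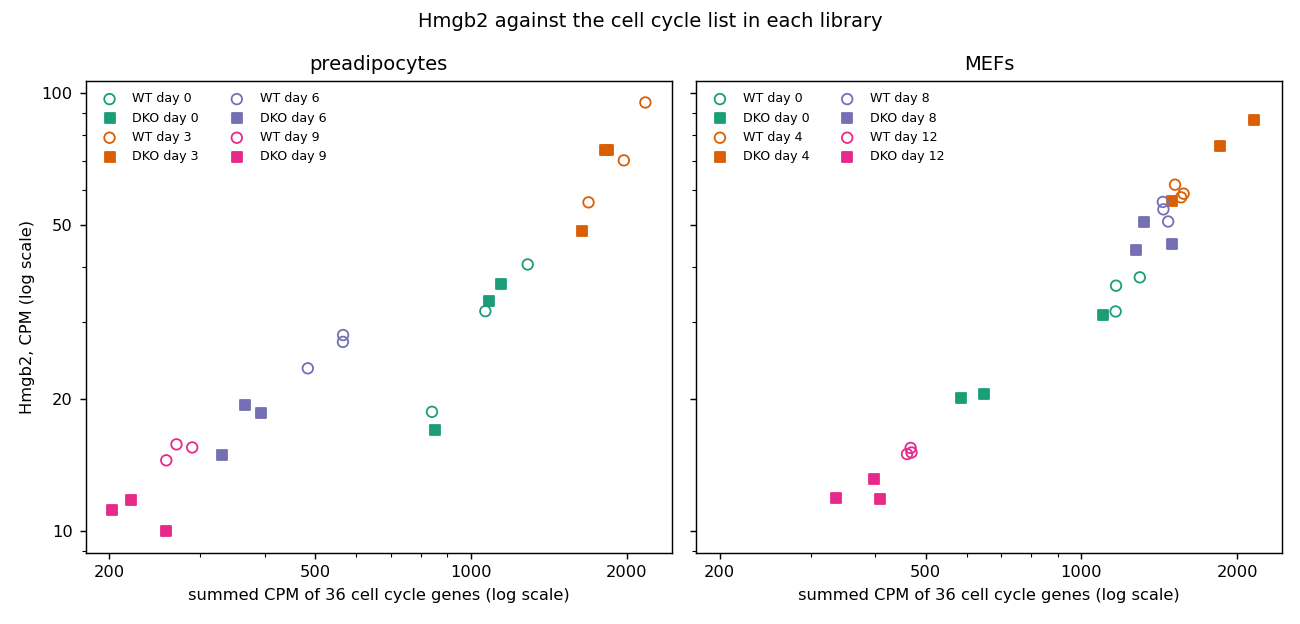
Hmgb2 in CPM against the summed CPM of 36 cell cycle genes, both on log axes, in the 24 preadipocyte and 24 MEF libraries. Open circles are WT, filled squares DKO, and colours mark the day. Preadipocytes of day 9, with sums of 203 to 289 CPM, hold 9.99 to 15.8 CPM of Hmgb2, and those of day 3, with sums of 1642 to 2172, hold 48.5 to 95.1.

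Hmgb2 ran with the genes of cell division. Over 24 preadipocyte libraries its log2 level correlated with the summed level of 36 cell cycle genes at Pearson's r 0.936 (Spearman's rho 0.963), and over 24 MEF libraries at 0.985 (0.977). These are descriptions over libraries that share days and genotypes. The same r was 0.595 and 0.719 for Hmga1, 0.785 and 0.678 for Hmga2, 0.597 and 0.475 for Hmgb1, and -0.73 and 0.215 for Hmgb3, in preadipocytes and MEFs. The cell cycle list moved with the days as well. In WT preadipocytes 32 of its 36 genes rose from day 0 to day 3, 35 fell from day 3 to day 6 and 28 fell from day 6 to day 9, where 24.7%, 46.6% and 14% of all genes were called. From day 0 to day 4 of MEFs 10 rose in WT, a share below the 33.2% of all genes called, and 31 in DKO (26.1%). From day 8 to day 12, 35 fell in each, beside 21.2% and 21.7% of all genes.

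Genes of the list were called between genotypes at day 6 of preadipocytes and day 12 of MEFs. At day 6 of preadipocytes 20 of 36 genes were called lower in DKO and none higher, beside 11.6% of all genes, with a median log2 difference of -0.74 beside -0.01 over all genes tested. Among them were Top2a, a topoisomerase of replicating and dividing cells (-1.15, adjusted p = 0.00344), Tpx2, a spindle protein (-1.31, adjusted p = 0.00356), Cenpf, a kinetochore protein (-1.34, adjusted p = 0.00404), and Ccna2, cyclin A2 (-1.09, adjusted p = 0.0047). The summed list was 484 to 566 CPM in WT and 330 to 393 in DKO. At day 12 of MEFs 8 of 36 were called lower, beside 7.98% of all genes (median -0.41 beside 0.00), and the sum was 460 to 470 CPM against 336 to 409. At day 0 of MEFs the median was -0.74, with 0 genes called by edgeR's quasi-likelihood test and 15 at an unadjusted p under 0.05, and the sum was 1164 to 1297 CPM in WT and 586 to 1103 in DKO. At day 9 of preadipocytes it was -0.56, with 0 called, 12 at such an unadjusted p, and sums of 258 to 289 against 203 to 257 CPM.

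Promoter sequence was read from RefSeq for the members, since the level of Hmgb2 correlated with that of a set of genes whose promoters are known for CCAAT boxes and the cell cycle element TTTGAA. The 250 bases before the RefSeq start of Hmgb2, chr8:57511593-57511842 on the plus strand of GRCm38.p6, are shown with CCAAT and TTTGAA in capitals, a TTTGAA on the other strand reading TTCAAA.
Hmgb2 promoter: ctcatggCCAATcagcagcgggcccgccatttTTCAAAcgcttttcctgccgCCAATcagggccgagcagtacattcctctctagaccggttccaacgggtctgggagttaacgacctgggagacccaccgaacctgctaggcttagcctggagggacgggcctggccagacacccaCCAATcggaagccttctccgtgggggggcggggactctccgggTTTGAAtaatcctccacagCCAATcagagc
This window held 4 CCAAT, which lay 243, 198, 73 and 11 bases before the start, and 2 TTTGAA, 218 bases before it on the other strand and 30 bases before it. Both strands were searched, and these motifs did not overlap. Of 32851 windows of this length in RefSeq, 33.8% held a CCAAT and 16% a TTTGAA, 0.84% held at least 4 CCAAT, and 8 windows, or 0.0244%, held at least 4 CCAAT and at least 2 TTTGAA. The limits of 4 and 2 were set from the Hmgb2 window, itself among the 8, so these shares are no test of whether it is unusual. Hmgb1 had 3 CCAAT in 1 of its 2 windows and Hmgb3 had 3 CCAAT and 1 TTTGAA, while 2.79% of windows held at least 3 CCAAT. Here too the limit was set from the members' windows. Neither motif was in the windows of Hmga1 and Hmga2. TTTGGCGC, TTTCCCGC (forms of the E2F site) and TATAAA, present in 0.417%, 0.895% and 12.4% of windows, were in none of the members' windows. Of the 30 cell cycle genes with a window 23 held a CCAAT and 9 a TTTGAA, beside 37.5% and 18.3% of all genes. A match in these letters is a description of the window and says nothing on which factor binds there.

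Genes whose pattern was most like that of each member were ranked by the smaller of its 2 correlations, over 24 preadipocyte and 24 MEF libraries, among 10616 genes. Hmga1 was closest to Cpne2 (r 0.910 and 0.917), with Bax also among its nearest, Hmga2 to Cep170b (0.944 and 0.944), Ly75 and Pmaip1, and Hmgb3 to Tomm70a (0.945 and 0.935), Mrpl17 and Osgin2. For Hmgb2 they were Pola2, a subunit of the primase complex (0.968 and 0.977), Tcf19 and Wdhd1, itself an HMG-box protein of the replication fork. Hmgb1 had looser neighbours, Tubgcp2 (0.750 and 0.887), Rplp0 and Sae1. Between members, Hmga1 and Hmga2 correlated at 0.902 and 0.879, and Hmga2 and Hmgb3 at -0.929 in preadipocytes and -0.164 in MEFs. By Spearman's rho 6 of the 15 genes ranked in this way came up again.

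Related genes were followed in lists, to be read against the shares of all genes called given for each day. Of 4 HMGN genes 2 were called lower at days 3 and 6 of preadipocytes and day 4 of MEFs (medians -0.43, -0.50 and -0.60), and 1 in the other comparisons. Hmgn2 was called lower in all 8, Hmgn1 at day 3 of preadipocytes and day 4 of MEFs, and Hmgn3, a relative intact in both genotypes, was lower in DKO at day 6 of preadipocytes (-0.69, adjusted p = 0.0112). Of 28 other HMG-box proteins Sox13 was called lower at day 12 of MEFs (-0.98, adjusted p = 4.17e-05). At day 6 of preadipocytes Sox11, a factor of embryonic tissue, was at -0.88 (adjusted p = 0.0616), and the mitochondrial HMG-box protein Tfam at 0.23 (adjusted p = 0.0834). Of 14 chaperones and partners of HMG proteins Xrcc6, the Ku70 subunit that binds DNA ends, was higher in DKO at day 6 of preadipocytes (1.11, adjusted p = 0.00217). Of 19 genes of extracellular HMGB1 signalling Il1r1 was lower at day 6 of preadipocytes (-0.78, adjusted p = 0.0103), where Tlr4, a receptor of HMGB1, was at -0.55 (adjusted p = 0.051). At day 12 of MEFs 2 of the 19 were called lower, among them Cd24a (-1.0, adjusted p = 2.16e-06). The list of let-7, Lin28 and IGF2 mRNA binding protein genes, which includes known regulators and targets of Hmga2, had a median between -0.21 and 0.05 over the 8 comparisons. Its members closest to a call were Arid3a at day 6 of preadipocytes (-0.51, adjusted p = 0.0197) and Igf2bp3 at day 12 of MEFs (-0.38, adjusted p = 0.000821), both at less than 1.5-fold.

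Of the 18 further Hmga and Hmgb symbols, Hmga1b had 8.83 to 179 expected counts over the 48 libraries. Hmgb1-ps2 was called higher in DKO at day 3 of preadipocytes (2.10, adjusted p = 0.0407) and day 12 of MEFs (3.24, adjusted p = 0.00125), and Hmgb1-ps3 lower at day 12 of MEFs (-1.94, adjusted p = 0.00467). These symbols were not aligned to Hmgb1 here. Hmgb1l, Hmgb4 and Hmgb4os were listed at 0 in all libraries.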

How the data were processed

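The authors trimmed strand-specific paired reads of 50 bases with cutadapt 1.18 after bcl2fastq 2.17, aligned them to mm10 with STAR 2.7.0f and estimated counts per gene with RSEM 1.3.0 (versions from the submitters' processing notes). The values used are the deposited expected counts, not normalized. Of the values, 5.49% to 7.9% per library were not whole, since RSEM shares reads that fit several genes, and all were rounded to whole numbers. The median total was 23978864 for preadipocyte and 23901662 for MEF libraries. Depth limits the lowest values only. Floors cover counting error alone, while each SD and SE includes the spread between libraries.

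Each comparison was fitted over all genes with edgeR 4.0.16 (quasi-likelihood test, robust, filterByExpr, TMM, in R 4.3.3) and adjusted by Benjamini-Hochberg: DKO against WT on the 6 libraries of a day, steps between days on the 12 libraries of a genotype, the variation of the DKO effect between days on 24 libraries, and cell types on the 6 WT libraries of day 0. A call needed an adjusted p under 0.05 together with a change of 1.5-fold or more. CPM used TMM over the 24 libraries of a cell type. The members and lists were chosen with earlier results of these data known. The text names all 7 members, the 3 genes most like each protein-coding member by Pearson's r of log2(CPM + 0.5) at a mean of at least 5 CPM, and up to 4 members of a list in order of p, apart from 1 gene that is not reported here. The scripts were tested on simulated data.

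Over 48 pairs of replicates the chi-square of their counts, per degree of freedom, was 2.11 to 154, above counting noise, so none was a duplicate. Same-numbered libraries deviated together (every correlation over 0.1) between days 6 and 9 of WT preadipocytes (0.130 to 0.453), days 0 and 3 of DKO preadipocytes (0.407 to 0.562) and days 6 and 9 of DKO preadipocytes (0.368 to 0.459), and not between WT and DKO. The pairing is read from the data and from shared numbers in the titles.

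Alternatives were the filter, library size scaling, DESeq2 1.42.0, limma-voom (limma 3.58.1) with quantile normalization, fits over all days or 2 days, other fold thresholds, a replicate block, and each library left out. Gene positions came from GENCODE M21, promoter windows from RefSeq (GRCm38.p6, only the bases before the start searched), and alignments from Biopython 1.88. Protein sequences were not used here.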

Additional observations from a re-analysis of the deposited data

Results flagged for a closer look

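Hmga1 moved in opposite directions at the first step of the 2 cell types in WT. From the group means it was at -0.6213 on the log2(CPM + 0.5) scale from day 0 to day 3 in preadipocytes, where every day 3 library was below every day 0 library. From day 0 to day 4 in MEFs it was at 1.125, with every day 4 library above every day 0 library. The difference between the 2 steps was not tested, and the steps differ in length as well as in cell type. In DKO cells the 2 steps had the same signs, but the MEF libraries overlapped.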

How the results depend on the processing

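Counts of members called stayed within 1.5 times the value given in 154 refits under another setting and in 150 that left out 1 library, and did not in 31 and 24. For fits that left out libraries the share of all genes called was not counted. DKO against WT in preadipocytes, 2 members were called at day 0, 5 at day 6 and 2 at day 9. With a replicate block the count was 1 at day 0 and 1 at day 9. At day 6 it was 3 with a threshold of 1 on the log2 scale and 3 in the fit over all days, and at day 9 it was 4 under library size scaling, which moved the median of all genes at day 6 from -0.01 to -0.11. In MEFs the count of 2 at day 0 and at day 4 became 0 and 0 with a replicate block. The count of 0 at day 8 became 2 under DESeq2, limma-voom, no filter, the fit over all days and without the libraries that stood apart. The count of 2 at day 12 became 6 with no fold threshold. For the steps between days, with no fold threshold the 3 calls of WT preadipocytes from day 0 to day 3 became 5 and the 3 calls of WT MEFs from day 8 to day 12 became 5. With a threshold of 1 the first of these became 1, the 3 from day 6 to day 9 in WT preadipocytes 1, the 4 from day 0 to day 3 in DKO preadipocytes 2, and the 3 between cell types 1. The WT count from day 6 to day 9 was also 1 under limma-voom and 1 with no filter. The 1 call of DKO preadipocytes from day 6 to day 9 became 2 in the fit of those 2 days. From day 4 to day 8 the WT MEF count of 0 became 2 under library size scaling, 2 under DESeq2, 1 with a replicate block and 2 without the libraries that stood apart, and the DKO count of 0 became 1 without them. The 1 call of DKO MEFs from day 8 to day 12 became 3 under library size scaling, 3 under DESeq2, 2 under limma-voom and 3 in the fit of those 2 days. The cause of these moves was not tested. The replicate numbers do not pair WT with DKO, and where the numbers paired the day steps of preadipocytes the replicate block changed no call.

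Leaving out 1 library in turn, the count ranged from 1 to 2 at day 0 of preadipocytes (1 without WT replicate 1 or 3), from 1 to 2 at day 3 (WT replicate 2), from 2 to 5 at day 6 (2 without WT replicate 1, 3 without WT replicate 3 or DKO replicate 3) and from 1 to 6 at day 9 (1 without WT replicate 2, 6 without DKO replicate 2). In MEFs it ranged from 0 to 3 at day 0 (0 without any 1 of the WT libraries, 1 without DKO replicate 2 or 3), from 0 to 2 at day 4 (0 without WT replicate 3, 1 without WT replicate 2) and from 0 to 1 at day 8 (DKO replicate 2). It ranged from 1 to 3 for WT preadipocytes from day 0 to day 3 (day 3 replicate 3) and from 1 to 2 from day 6 to day 9 (day 6 replicates 2 and 3, day 9 replicate 1). It ranged from 0 to 2 for WT MEFs from day 4 to day 8 (day 4 replicate 1, day 8 replicate 2), from 1 to 3 for DKO MEFs from day 8 to day 12 (day 8 replicate 1) and from 0 to 1 for the variation of the DKO effect by day in MEFs (DKO day 0 replicate 1).

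Values near 0 changed sign. Hmga1 did at day 6 of preadipocytes under library size scaling (-0.02738), at day 0 of MEFs under limma-voom (-0.013) and with a replicate block (-0.008643), at day 8 with a replicate block (-0.01171) and without the libraries that stood apart (-0.07633), and at day 12 in the fit over all days (0.01745). Leaving out a library, Hmgb2 and Hmgb3 at day 0 of preadipocytes ranged from -0.3118 to 0.2183 and from -0.386 to 0.2511, Hmgb2 at day 3 from -0.3172 to 0.06319, Hmga1 at day 0 of MEFs from -0.2749 to 0.2019, Hmga1, Hmga2 and Hmgb3 at day 8 from -0.2102 to 0.1524, -0.6472 to 0.3617 and -0.1679 to 0.3128, and Hmga1 at day 12 from -0.0765 to 0.05305. At day 6 of preadipocytes the call of Hmgb2 was lost under limma-voom (-0.58) and in the fit over all days, and that of Hmgb3 under library size scaling (0.54) and in the fit over all days. By Spearman's rho 6 of the 15 genes ranked as most like a member came up again.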
